A study of Mus musculus with 6 samples.

Results

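Bcl2, Bak1, Casp4 and Gadd45g are genes of cell survival and cell death. They were taken by symbol from a deposited table of 559 genes, where all 4 members were found. The table compares natural killer (NK) cells, lymphocytes that kill infected and tumour cells, purified from the spleens of C57BL/6 mice. The OA group received oleic acid (OA), the main monounsaturated fatty acid of the diet and of body fat, at 0.2 mM for 36 h, and the control group was kept as long without it. Each group has 3 libraries, and the labels state that the treatment was performed once and do not say whether the libraries came from separate mice or cultures. P-values therefore measure the spread between these libraries, which may be technical. Levels are in TPM, a unit of abundance that corrects for transcript length and states, on a fixed scale, what fraction of a library's transcripts a gene makes up. The authors listed genes with a Q value under 0.05 on these same libraries, so that the comparisons below describe genes already selected for a difference. Whether an unlisted gene differed was not analysed here.

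The proteins of the 4 genes act at different points of cell death. BCL2 sits on the outer mitochondrial membrane and protects the cell by binding the pro-death members of its own family. BAK, the product of Bak1, is one of those members and opens the membrane when it is set free, which releases cytochrome c and starts the caspase cascade. Mouse Casp4 encodes the protease also called caspase-11, which senses lipopolysaccharide in the cytosol and cleaves gasdermin D, causing lytic death (pyroptosis). Gadd45g encodes a small stress-induced protein that binds the kinase MTK1 and acts through p38 and JNK, and it is linked to growth arrest and apoptosis. In NK cells survival depends on interleukin 15, and BCL2 is one of the proteins that this cytokine maintains. Bcl2 is thus the pro-survival member, Bak1 and Casp4 are pro-death members, and Gadd45g is a stress-response member usually counted with the pro-death side.

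The genes lie on separate chromosomes in the mouse build GRCm38, by RefSeq coordinates matched on gene identifier. Bcl2 (12043) spans chr1:106538176-106714290 on the minus strand, Bak1 (12018) chr17:27019812-27028627 on the minus strand, Casp4 (12363) chr9:5308849-5336791 on the plus strand and Gadd45g (23882) chr13:51846675-51848475 on the plus strand. In the GENCODE annotation Bak1 shares 614 exonic bases with Ggnbp1 on the opposite strand, and Bcl2 shares 558 with the antisense gene D630008O14Rik. Whether the authors counted by strand is not given in the sources used here, so reads from these stretches may not be assigned with certainty. Neither partner was listed.

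The promoters of the 4 genes are shown to let the sequences be compared. Each window runs from 250 bases before to 50 after the RefSeq start, 5′ to 3′ on the gene's strand (RefSeq, GRCm38.p6), at chr1:106714241-106714540, chr17:27028578-27028877, chr9:5308599-5308898 and chr13:51846425-51846724 in the order printed. Capitals mark matches, on either strand, to a GC box (GGGCGG), a CRE core (TGACGT), an E-box (CACGTG), the CCAAT box, named for its letters, the TATA box (TATAAA) or the NF-kappaB consensus.
Bcl2: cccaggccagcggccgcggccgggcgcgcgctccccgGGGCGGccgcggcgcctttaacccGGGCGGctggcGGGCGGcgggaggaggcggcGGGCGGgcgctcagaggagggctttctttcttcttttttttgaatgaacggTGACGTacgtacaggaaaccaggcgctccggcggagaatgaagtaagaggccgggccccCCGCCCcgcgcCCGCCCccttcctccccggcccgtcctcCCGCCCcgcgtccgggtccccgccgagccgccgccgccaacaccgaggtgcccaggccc
Bak1: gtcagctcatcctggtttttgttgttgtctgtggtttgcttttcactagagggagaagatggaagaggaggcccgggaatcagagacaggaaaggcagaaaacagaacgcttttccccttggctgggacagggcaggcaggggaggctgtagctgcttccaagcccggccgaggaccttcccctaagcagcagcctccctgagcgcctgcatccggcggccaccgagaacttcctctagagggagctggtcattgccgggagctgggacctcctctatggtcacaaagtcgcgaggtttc
Casp4: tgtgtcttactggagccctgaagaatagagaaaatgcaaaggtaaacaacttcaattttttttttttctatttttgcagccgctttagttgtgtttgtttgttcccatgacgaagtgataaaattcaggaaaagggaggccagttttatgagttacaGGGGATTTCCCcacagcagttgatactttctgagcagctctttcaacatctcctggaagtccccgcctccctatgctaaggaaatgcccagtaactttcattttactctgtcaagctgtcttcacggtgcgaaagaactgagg
Gadd45g: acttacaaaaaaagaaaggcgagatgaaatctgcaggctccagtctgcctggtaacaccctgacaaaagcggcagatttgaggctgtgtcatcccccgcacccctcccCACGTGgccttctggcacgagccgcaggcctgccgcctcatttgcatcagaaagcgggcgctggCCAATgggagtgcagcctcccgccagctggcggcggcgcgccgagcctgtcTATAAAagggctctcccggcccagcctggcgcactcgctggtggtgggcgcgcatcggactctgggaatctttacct

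The windows held different motifs. The Bcl2 window, at 76.0% G and C, had 7 GC boxes and 1 CRE core, which 35.7% and 7.51% of all 32851 promoter windows hold at least once. The Casp4 window, at 42.0% G and C, had 2 overlapping matches to the NF-kappaB consensus between 93 and 83 bases before the start, and 4.51% of all windows hold this consensus. The Gadd45g window, at 62.3% G and C, had a TATA box starting 27 bases before the start (13.6% of all windows), a CCAAT box (37.4%) and an E-box (7.15%). The Bak1 window, at 58.3% G and C, matched none of the motifs searched. No window held the gamma-activated site TTCNNNGAA, the interferon-stimulated response element (ISRE) or the AP-1 site TGANTCA, which 8.30%, 3.44% and 7.81% of all windows hold. None of the motifs was found in more than 1 of the 4 windows, and a match is a run of letters, not evidence of binding.

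Transcripts of all 4 genes were lower after OA, by 10.7% to 22.8%. Bcl2, the pro-survival member, stood at 59.35, 55.52 and 51.01 TPM in OA libraries 1 to 3 and at 66.11, 64.48 and 70.51 TPM in control libraries 1 to 3. Every OA library was below every control library. The mean was 55.3 ± 4.17 TPM in OA and 67.0 ± 3.12 TPM in control (SD, n = 3 each), and the log2 fold change was −0.27 (SE 0.0749, adjusted p = 0.0305, limma). Its 95% confidence interval of the OA to control ratio, from limma and without adjustment for multiple tests, ran from 0.725 to 0.942.

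Bak1, the pore-forming pro-death member, was the most abundant of the 4 genes. It measured 213.07, 205.6 and 199.94 TPM in OA libraries 1 to 3, against 226.92, 231.31 and 234.66 TPM in control libraries 1 to 3. The groups did not overlap, and the spread within each was small, with means of 206 ± 6.59 TPM in OA and 231 ± 3.88 TPM in control (SD, n = 3 each). The fall was the smallest of the members, at log2 −0.16 (SE 0.0479, adjusted p = 0.0332, limma).

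Casp4, the inflammatory caspase gene, had 89.36, 88.34 and 81.84 TPM in OA libraries 1 to 3, whereas control libraries 1 to 3 had 99.23, 101.56 and 110.27 TPM. The highest OA library was below the lowest control library. The log2 fold change was −0.26 (SE 0.0661, limma adjusted p = 0.0285), with means of 86.5 ± 4.08 TPM in OA and 103.7 ± 5.82 TPM in control (SD, n = 3 each).

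Gadd45g, the stress-response gene, had the largest fall of the members. Its level was 91.18, 83.58 and 74.57 TPM in OA libraries 1 to 3 and 106.18, 102.16 and 114.78 TPM in control libraries 1 to 3, again without overlap. The mean was 83.1 ± 8.31 TPM in OA and 107.7 ± 6.45 TPM in control (SD, n = 3 each), a log2 fold change of −0.37 (SE 0.0929, adjusted p = 0.0282, limma). The 95% interval of the OA to control ratio, from limma and without adjustment for multiple tests, ran from 0.656 to 0.908.

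**Figure D1:**
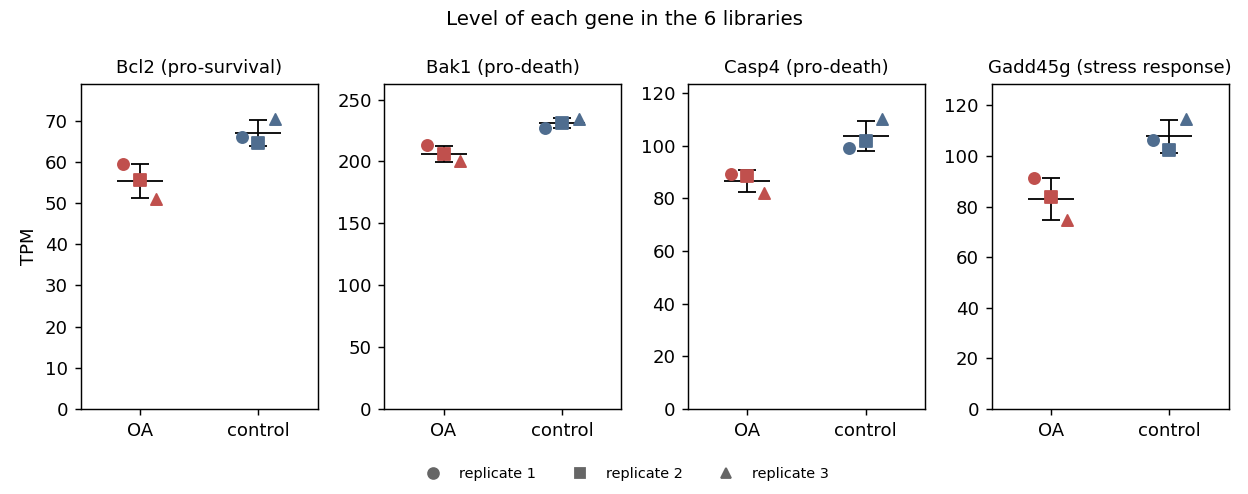
TPM (vertical axis, from 0) of Bcl2, Bak1, Casp4 and Gadd45g in the 3 OA libraries (left in each panel) and the 3 control libraries (right). Points are libraries, with the shape giving the replicate number, and the line and bar are the mean and SD. In each panel every OA library lies below every control library, and the fall relative to the control mean is smallest for Bak1, at 10.7%.

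All 4 members were called lower, but the table offers little contrast for such a count. Of the 559 listed genes, 40.1% were called lower and 36% higher by limma at an adjusted p under 0.05, and the groups did not overlap with OA lower for 48.5% and with OA higher for 45.1%. The falls were also modest for this table. The 4 members had a median log2 fold change of −0.27, against −0.32 for the 224 genes called lower. Among these 224 genes, 86 fell further than Gadd45g and 7 fell by less than Bak1. In the authors' deposited table the log2 fold changes were −0.29 for Bcl2, −0.16 for Bak1, −0.25 for Casp4 and −0.37 for Gadd45g. In the authors' deposited table the Q value was 0.000333 for Bcl2, 0.00480 for Gadd45g, 0.0116 for Bak1 and 0.0312 for Casp4.

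The calls depended on single libraries, for the whole table as for the 4 members. Leaving out OA replicate 2 ended the calls of all 4 members (adjusted p between 0.0806 and 0.0972, limma), as did leaving out control replicate 1 (0.0673 to 0.0814), control replicate 2 (0.0532 to 0.0768) or control replicate 3 (0.0557 to 0.0725). In the same fits limma called 0 of the 559 genes without OA replicate 2 (159 higher and 168 lower with an unadjusted p under 0.05), 0 without control replicate 1 (171 and 168 unadjusted), and 100 and 149 when control replicate 2 or 3 was dropped. The log2 fold change of Bcl2 was −0.28 without OA replicate 2, against −0.27 with all libraries, so that this call was lost without a smaller fold. Leaving out OA replicate 3 ended the call of Bak1 alone (adjusted p = 0.0583, limma), and without OA replicate 1 all 4 remained called. Without replicate 3 of both groups the 4 members were also called (adjusted p between 0.0296 and 0.0489, limma), with smaller log2 fold changes of −0.18 for Bcl2, −0.13 for Bak1, −0.17 for Casp4 and −0.25 for Gadd45g. Libraries were also scaled to equal medians, taken over the 559 listed genes alone. These genes were all selected for a difference, so this is not a normalisation on whole libraries. With this scaling limma called 162 listed genes higher and 82 lower, against 201 and 224 with the values as deposited. Of the members only Gadd45g was then called (adjusted p = 0.0464, limma), and the other members had an adjusted p between 0.0510 and 0.0728. The fold changes stayed negative in each of these fits. With libraries left out this follows from groups that do not overlap.

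**Figure D2:**
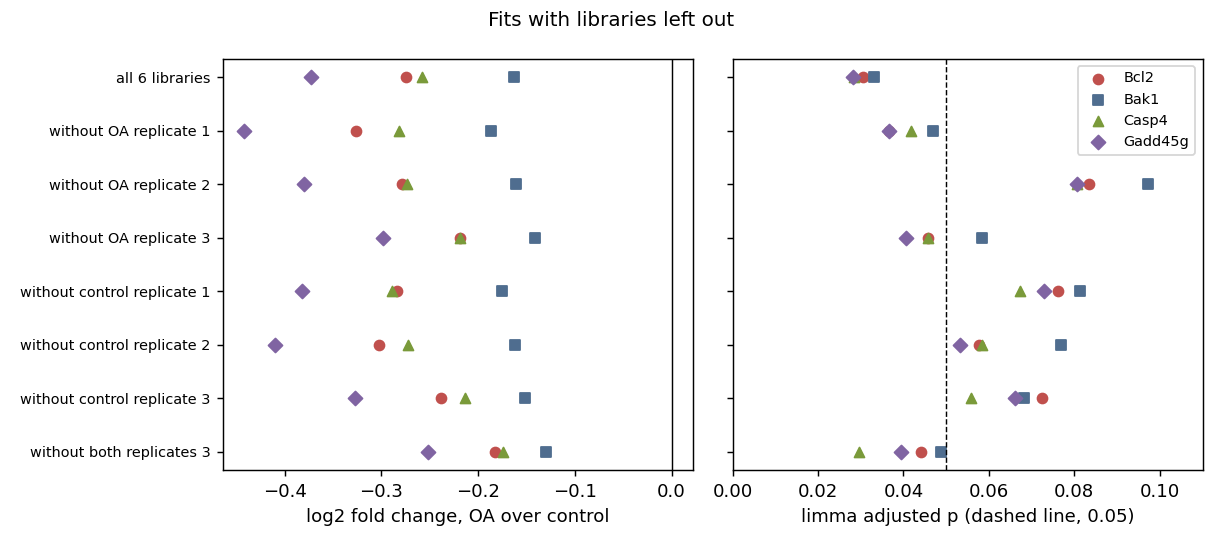
Log2 fold change of OA over control (left) and limma adjusted p (right, dashed line at 0.05) for the 4 genes with all libraries and with libraries left out. The log2 fold changes lie between −0.44 and −0.13, and removing OA replicate 2 or any control library puts all 4 genes to the right of the line.

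Since Bcl2 opposes Bak1, their balance was read within each library. The log2 ratio of Bcl2 to Bak1 TPM was −1.84, −1.89 and −1.97 in OA libraries 1 to 3 and −1.78, −1.84 and −1.73 in control libraries 1 to 3. The highest OA library (−1.844) and the lowest control library (−1.843) all but touched. Bak1 had 3.74 ± 0.167 TPM per TPM of Bcl2 in OA and 3.45 ± 0.130 in control (SD, n = 3 each), a difference in log2 ratio of Bcl2 to Bak1 of −0.12 (p = 0.1, two-sided exact permutation test, the smallest p that 3 against 3 libraries allow). Without OA replicate 3 the difference was −0.08, and without replicate 3 of both groups −0.06.

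The other pairs were compared in the same way. Over the 6 pairs the smallest adjusted p was 0.15 (exact permutation tests, Benjamini-Hochberg). The log2 ratio of Bak1 to Gadd45g differed most, with a mean of 1.32 ± 0.10 in OA and 1.10 ± 0.074 in control (SD, n = 3 each). The ratio of Bcl2 to Casp4 differed least, at −0.65 ± 0.0498 in OA and −0.63 ± 0.0375 in control, and its groups overlapped. With so few libraries an unequal change among the 4 members could not reach significance.

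The 4 genes ranked the OA libraries alike, but in control they shared only the highest library. Control replicate 1 was above control replicate 2 for Bcl2 and Gadd45g and below it for Bak1 and Casp4. Control replicate 3 was the highest control library and OA replicate 3 the lowest OA library for all 4 members. This placing of replicate 3 was shared by 196 of the 224 genes called lower (87.5%) and by 42.8% of all 559 genes. It was therefore not particular to survival and death genes. After each group's mean was subtracted, Bcl2 and Gadd45g had a Pearson r of 0.999 over the 6 libraries, and the lowest r of any pair was 0.840, between Bak1 and Casp4. The genes with the closest pattern by this measure were Gadd45g, Nod1 and S100a6 for Bcl2, then Bcl2, S100a6 and Nod1 for Gadd45g (r of 0.998 to 0.999). For Bak1 they were Klf4, Lfng and Tnfsf10 (r of 0.966 to 0.982), and for Casp4 Il17f, Tfrc and Rrm2 (r of 0.993 to 0.994). High values were common: of 463 genes compared, 129 exceeded 0.9 with Bcl2, 127 with Gadd45g, 100 with Casp4 and 53 with Bak1. The points share 6 libraries and 2 group means, so r is given only to describe which libraries were high or low.

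The same libraries differed in markers of cell types. All 8 listed of 10 NK cell markers were called lower in OA, with a median log2 fold change of −0.40. Their summed level ran from 2126 to 2758 TPM in OA and from 3323 to 4062 TPM in control. Gzma and Gzmb were the largest parts of this sum. Their means were 542 ± 84.8 and 1050 ± 144 TPM in OA and 861 ± 145 and 1551 ± 207 TPM in control (SD, n = 3 each). Of 11 myeloid markers 6 were listed, of which 5 were called higher and 1 lower, with a summed level of 1830 to 1926 TPM in OA and 1353 to 1606 TPM in control. The 5 listed of 7 B cell markers were all called higher (491 to 577 TPM in OA and 312 to 393 TPM in control), the 1 listed of 7 neutrophil markers, Mmp9, was called higher (6.4 to 6.6 TPM in OA and 2 to 3.3 TPM in control), and the 2 listed of 7 T cell markers were both called lower (194 to 240 TPM in OA and 259 to 291 TPM in control). No listed marker of these types was at 0 in a library, and the defining genes Klrb1c (NK1.1), Csf1r and Cd3e were not listed, nor was any of 4 erythroid markers. The 7 listed of 8 heart muscle markers summed to 34.8, 345 and 4785 TPM in OA replicates 1, 2 and 3, against 24.3 to 41.4 TPM in control. In bulk RNA fewer cells of a type cannot be told apart from lower expression of the marker genes in each cell. The part of the cell mixture in the falls of the 4 members was not tested.

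Set against the 8 listed NK cell markers of the same library, the 4 members stood higher after OA. The log2 level of Bcl2 minus the mean log2 level of the 8 NK genes was −1.68 ± 0.0774 in OA and −1.86 ± 0.0531 in control (SD, n = 3 each). For Bak1 it was 0.22 ± 0.136 in OA and −0.08 ± 0.103 in control, a difference of 0.30. The difference was 0.20 for Casp4 and 0.08 for Gadd45g, the member closest to the NK genes. For Gadd45g the lowest OA library (−1.151) and the highest control library (−1.153) nearly met. These ratios are descriptions and were not tested. The 8 NK genes are those that passed the authors' Q value filter, and all 8 were called lower. A member with a smaller fall than their mean therefore stands higher by construction. The ratios show only that these 8 NK genes fell on average by more than each of the 4 members on this scale.

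**Figure D3:**
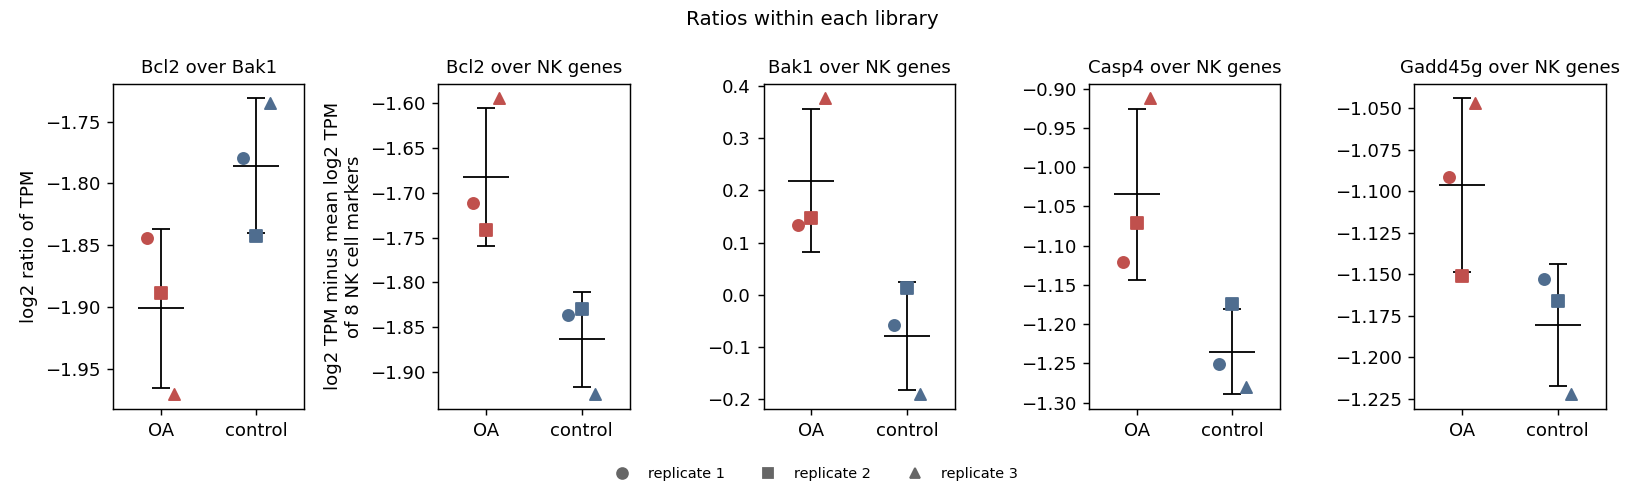
Ratios within each library, in OA (left in each panel) and control (right), on vertical axes of different range that do not start at 0. The first panel gives the log2 ratio of Bcl2 to Bak1 TPM, and the others the log2 TPM of each gene minus the mean log2 TPM of 8 NK cell markers. Points are libraries, lines and bars the mean and SD. Bcl2 over Bak1 is lower in OA by 0.12, and the 4 ratios to NK genes are higher in OA by 0.08 to 0.30. All 8 markers were selected by the authors' Q value and called lower in OA, so a smaller fall gives a higher ratio.

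The wider death and survival machinery was mostly not listed. Of 96 symbols in 10 groups (BCL2 family, caspases, inflammasome, inhibitors of apoptosis, death receptors, necroptosis, p53 targets, survival kinases and ferroptosis), 12 were listed, the 4 members among them. Of the 12, 8 were called lower and 4 higher, against 40.1% and 36% of the table, and the median log2 fold change was −0.22 in these genes and 0.14 over all 559 genes. The 8 genes beside the members were evenly divided, with 4 called lower and 4 higher and a median log2 fold change of 0.0013. Bcl2 was the 1 listed gene of 8 anti-apoptotic BCL2 family genes and Bak1 the 1 listed gene of 11 pro-apoptotic ones. None of the 9 inhibitors of apoptosis was listed.

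Of the listed genes in the death receptor, necroptosis and pyroptosis groups beyond the members, Zbp1 and Tnfsf10 fell while Tnf and Il1b rose. Neither Tnf nor Il1b is counted here as strictly pro-death. Zbp1, which encodes a nucleic acid sensor that triggers necroptosis, had 228.15, 202.08 and 196.7 TPM in OA libraries 1 to 3 and 245.69, 245.06 and 298.89 TPM in control libraries 1 to 3 (log2 −0.33, SE 0.108, adjusted p = 0.0407, limma). Tnfsf10, the gene of the death ligand TRAIL, fell by 0.50 on the log2 scale. Tnf, the gene of a ligand that can signal both death and survival, was higher at 621.06, 653.07 and 605.96 TPM in OA libraries 1 to 3, against 555.08, 576.71 and 521.95 TPM in control libraries 1 to 3 (log2 0.19, SE 0.0608, adjusted p = 0.0407, limma). Il1b, whose product is released during pyroptosis and which myeloid cells express strongly, rose by 0.25 on the log2 scale while Casp4 fell.

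The pro-survival side was divided. Both listed survival kinases are members of the PIM family, which phosphorylates and inactivates the death protein BAD. Pim2 fell by 0.49 on the log2 scale, with 228.6, 220.4 and 175.27 TPM in OA libraries 1 to 3 and 283.33, 274.53 and 315.87 TPM in control libraries 1 to 3. Pim3 rose, at 49.73, 48.77 and 58.08 TPM in OA libraries 1 to 3 against 43.15, 42.99 and 42.54 TPM in control libraries 1 to 3 (log2 0.27, SE 0.0792, adjusted p = 0.0326, limma). Of the listed ferroptosis genes, the cystine transporter gene Slc7a11, which protects from this iron-dependent death, rose by 0.21 on the log2 scale. The transferrin receptor gene Tfrc, which is not counted here as pro-survival, fell by 0.18. The calls of these 12 genes went with those of the table when a library was left out. In limma 0 of the 12 were called without control replicate 2 (with an unadjusted p under 0.05 for 4 higher and 6 lower genes), where 87 of the 559 genes were called higher and 13 lower. Without control replicate 3, 1 was called higher and 1 lower, against 119 and 30 of the table. None was called without control replicate 1 (2 and 8 unadjusted) or without OA replicate 2 (2 and 5 unadjusted), where limma called 0 genes of the table. Without OA replicate 1, 2 were called higher and 7 lower, and without OA replicate 3, 4 higher and 5 lower.

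**Figure D4:**
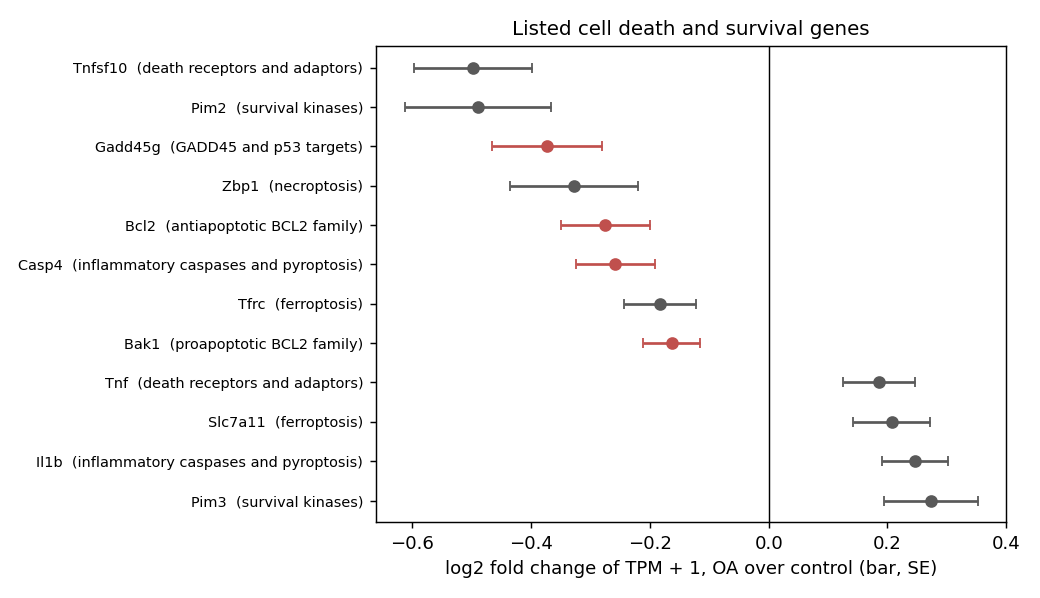
Log2 fold change of OA over control (horizontal axis, log2(TPM + 1) scale; bars, SE) for the 12 listed genes of the death and survival groups, with the 4 members in red and the other genes in grey. There, 8 genes lie below 0, from −0.50 for Tnfsf10 to −0.16 for Bak1, and 4 lie above 0, up to 0.27 for Pim3.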

How the data were processed

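RNA of purified mouse splenic NK cells was sequenced in 3 OA and 3 control libraries. The deposited table holds, per the file headers, TPM for each library, a mean TPM per group, and the authors' log2 fold change, P value and Q value (OA over control). The submitters' processing notes name Bowtie2, RSEM 1.3.1, DESeq2 1.4.5 and mm10 without their roles; filters and annotation are not given in the sources used here. Read numbers cannot be recovered from TPM; the depth of the libraries is therefore unknown, and a count model could not be used.

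Libraries were grouped by the labelled treatment and columns matched by sample title. All 559 genes entered 1 unfiltered limma fit (limma 3.58.1, R 4.3.3) of log2(TPM + 1) on treatment, two-sided, with Benjamini-Hochberg adjustment over all genes; a call is an adjusted p under 0.05. This scale understates the change of low genes. The script was checked on simulated data. Ratios were compared with exact permutation tests, which use all 20 assignments of 3 OA labels. Genes named were the 4 members, the listed genes of the death and survival groups, and the 3 genes most like each member in group-centred log2(TPM + 1), among genes with a mean of at least 10 TPM. A gene that this rule names is not reported here and was left out of the groups. The members and lists were chosen with earlier results of these data known. The alternatives tried were other pseudocounts, a level filter, median scaling, a replicate block, another limma prior, leaving out genes high in OA replicate 3 alone, and leaving out libraries. Python 3.11.15, pandas 2.3.3 and matplotlib 3.10.9 made tables and plots.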

Additional observations from a re-analysis of the deposited data

How the results depend on the processing

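Pseudocounts of 0.1 and 5, a minimum mean of 10 TPM, leaving out 34 genes high in OA replicate 3 alone, a limma prior with trend and robust fit, and leaving out replicate 3 of both groups kept all 4 members called lower. With libraries scaled to equal medians of the listed genes alone, Bcl2 (log2 −0.28), Bak1 (−0.17) and Casp4 (−0.27) lost their calls. Limma then called 82 genes lower, with 2 of the death and survival genes higher and 3 lower. The cause was not tested. Leaving out 1 library at a time, the log2 fold change ranged from −0.33 to −0.22 for Bcl2, −0.19 to −0.14 for Bak1, −0.29 to −0.21 for Casp4, −0.44 to −0.30 for Gadd45g and −0.14 to −0.08 for the log2 ratio of Bcl2 to Bak1. The counts then ranged from 0 to 177 genes higher and 0 to 187 lower, and from 0 to 4 and 0 to 7 among the death and survival genes.

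Deviations of same-numbered libraries from their group means correlated at 0.33, −0.11 and −0.08. With 3 libraries in each group a gene's deviations sum to 0. These values therefore cannot settle whether replicate numbers pair the libraries. With the replicate number as a block, limma called 0 genes higher and 0 lower (149 and 89 at an unadjusted p under 0.05), and 0 higher and 0 lower of the death and survival genes (2 and 3 unadjusted). The members' log2 fold changes under the block were −0.27 (Bcl2), −0.16 (Bak1), −0.26 (Casp4) and −0.37 (Gadd45g), with adjusted p between 0.115 and 0.142 (limma).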
